A study of Homo sapiens with 6 samples.

Results

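The genes described are 10 negative regulators of cytokine signalling: the suppressors of cytokine signalling SOCS1 to SOCS7, their relative CISH, and the tyrosine phosphatase genes PTPN2 and PTPN6. They were taken by gene symbol from a table of 60611 genes, in which all 10 had a row, and all 10 were among the 17863 genes with enough counts to be tested. The cells were EndoC-BH5, a wild-type line of human pancreatic beta cells. One group of 3 libraries (vehicle) came from cells given the carrier alone, and the other group of 3 (cytokine) from cells given interferon gamma together with interleukin 1b, a pair of inflammatory cytokines. Each library is one of 3 batches per group by the study's design text, which does not define a batch, so the spread behind every p-value may be technical. No source used here gives cytokine doses or exposure times, and a single line stands for the beta cell.

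Cytokine receptors that lack kinase activity of their own signal through Janus kinases (JAKs), which phosphorylate STAT transcription factors. SOCS proteins and CISH are induced by many cytokines and act back on the pathway: an SH2 domain binds phosphorylated receptors or JAKs, and a SOCS box recruits a ubiquitin ligase. PTPN2 and PTPN6 remove phosphate from JAKs, STATs or receptors. In beta cells, SOCS1, SOCS3 and PTPN2 are known as brakes on interferon and interleukin 1 signalling, and PTPN2 lies in a region associated with type 1 diabetes.

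With cytokines, SOCS1 and SOCS3 went from nearly no counts to clear levels and PTPN2 rose 2.98-fold, while SOCS2 fell to 0.129 of its vehicle level. SOCS4, SOCS5, SOCS6, SOCS7, CISH and PTPN6 all lay within 1.5-fold of their vehicle level. By the edgeR quasi-likelihood test with Benjamini-Hochberg adjustment at 0.05 over all tested genes, 4 of the 10 genes were higher with cytokines (SOCS1, SOCS3, PTPN2 and, with TMM scaling but not with library size alone, SOCS5) and 4 were lower (SOCS2, CISH, SOCS7 and PTPN6). Of all tested genes 57.1% were called, 28.3% as higher and 28.8% as lower, so a call alone does not set a gene apart here. With at least a 2-fold change, 4 of the 10 and 10.2% of all tested genes were called, but 2 of these 4, SOCS1 and SOCS3, passed the count filter only through the cytokine libraries, where they are high. The median absolute log2 change was 0.297 over the 10 genes and 0.28 over all tested genes, and the median signed log2 change was -0.031 and -0.018. The vehicle and cytokine libraries did not overlap in 9 of the 10 genes, with SOCS4 the exception, and in 61.0% of all tested genes.

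**Figure D1:**
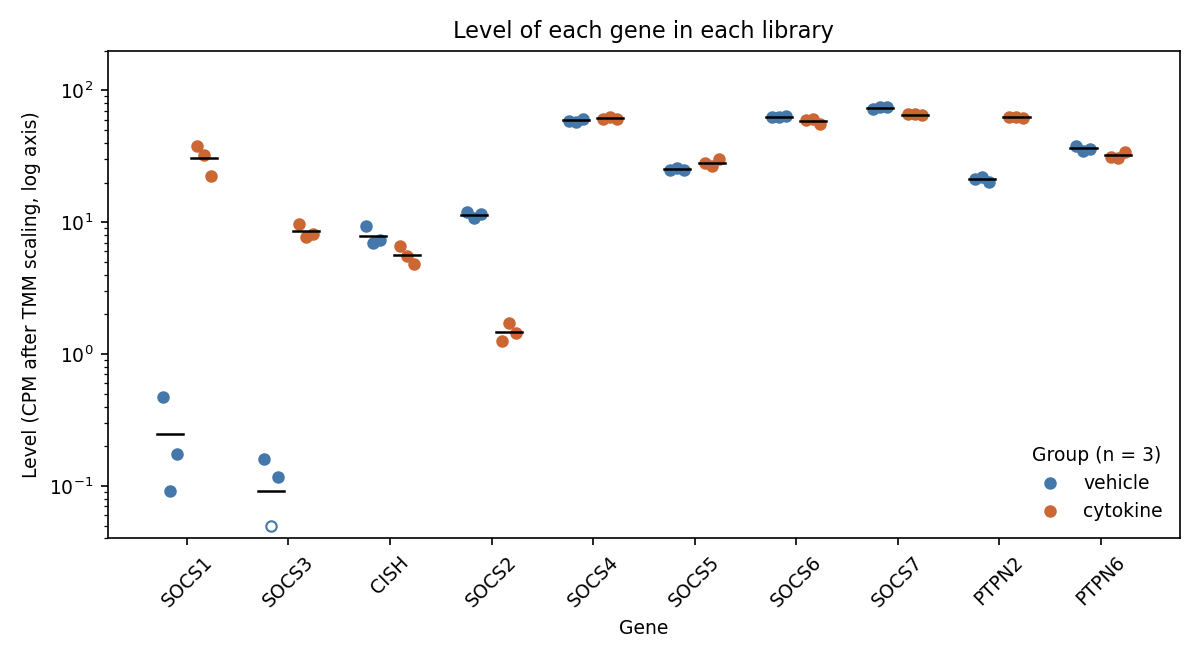
Level of each gene in each library, as CPM after TMM scaling on a log axis. Each point is 1 library, black bars are group means over 3 libraries, and the open point, drawn near the bottom of the axis, is the vehicle library in which SOCS3 had 0 counts. SOCS1 and SOCS3 stand far apart between the groups, SOCS2 and PTPN2 clearly, and the other 6 genes by little.

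Total counts per library ranged from 5871481 in vehicle replicate 1 to 16175364 in cytokine replicate 1, and a level of 1 CPM, a count scaled to library size, stood for 6.3 to 17.1 counts. Levels are CPM after TMM scaling, which corrects library size for composition. The common biological coefficient of variation was 3.46%. Scaling by library size alone moved the median gene from -0.018 to -0.22 on the log2 scale and the share of higher genes among all calls from 49.6% to 25.3%. Under that scaling 3 of the 10 genes were called higher and 6 lower, beside 2980 higher and 8791 lower of all 17863 tested genes. All 10 beta-cell markers on a list that includes insulin (INS) and PDX1 were detected and tested, 4 higher and 6 lower, and their summed level was 21000 to 22200 CPM in the vehicle and 31400 to 32100 CPM in the cytokine libraries. The rise of the sum lay mostly in the markers CHGA (mean 11700 to 18100 CPM) and IAPP (4000 to 8240 CPM). INS was among the 6 lower markers, with means of 4010 and 3640 CPM. Of markers of other cell types, 0 of 5 endothelial, 1 of 6 mesenchymal, 1 of 7 acinar, 3 of 6 duct and 6 of 7 other islet markers had enough counts to be tested. Summed levels of the other islet markers were 607 to 677 CPM with vehicle and 628 to 663 CPM with cytokines. Most of this was SST, with means of 555 and 568 CPM. The duct sum was 153 to 173 and 138 to 148 CPM, mostly KRT19 (means 161 and 135 CPM). The summed mesenchymal level was only 3.21 to 4.39 CPM with vehicle and 12.8 to 14.1 CPM with cytokines. Its PDGFRB rose by 2.01 on the log2 scale. The part of these other cell-type transcripts in the results below was not tested. In bulk RNA, fewer cells with a transcript and less of it per cell cannot be told apart.

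SOCS1 encodes a SOCS protein with a kinase inhibitory region, a stretch that blocks JAK catalysis directly, and is a major brake on interferon gamma signalling. The gene (ENSG00000185338) lies on chromosome 16 at 11254405 to 11256200 on the minus strand of GRCh38. Its 250 bases upstream of the RefSeq start, at chr16:11256205-11256454, are shown because SOCS1 went from nearly no counts to a clear level and the stretch holds 2 motifs tied to the cytokines used. Capitals mark, in order, a match to the interferon response motif, GAAA followed after any 2 bases by GAAA, which starts 113 bases before the start, and a match to the NF-kappaB consensus, which starts 67 bases before it. NF-kappaB is the transcription factor family that interleukin 1 activates.
SOCS1 upstream region: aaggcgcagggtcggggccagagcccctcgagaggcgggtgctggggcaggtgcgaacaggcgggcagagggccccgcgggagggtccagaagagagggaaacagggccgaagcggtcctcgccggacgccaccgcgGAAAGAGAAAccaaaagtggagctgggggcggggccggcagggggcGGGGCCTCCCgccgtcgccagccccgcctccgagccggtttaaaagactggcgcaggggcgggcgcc
On either strand, the same searches found the interferon response motif in 3.02% and the NF-kappaB consensus in 9.96% of 35114 RefSeq promoters of that length. The 2 matches do not overlap, and a match is a description of letters, not of binding.

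SOCS1 had 3, 1 and 3 counts in the vehicle libraries, given here and below in the order of replicates 1, 2 and 3, or 0.476, 0.0919 and 0.175 CPM. With cytokines it had 565, 411 and 312 counts, or 37.6, 32.3 and 22.6 CPM. Every cytokine library was thus far above every vehicle library. The log2 fold change was 7.17 (SE 0.56, n = 3 per group) with an edgeR adjusted p of 0.00011. The scaled ratio of the summed counts, 1288 against 7, was 151.8-fold with a 95% counting interval from 73.5 to 378.3, which covers counting error only. Because SOCS1 had at most 3 counts in any vehicle library, it passed the count filter through the cytokine libraries alone.

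The cytokine libraries differed among themselves in SOCS1 more than in any comparable gene. Their coefficient of variation was 24.7%, the highest of the 3804 tested genes with a mean of 20 to 50 CPM in the cytokine libraries, where the median was 4.7% and the next highest 18%. This comparison was chosen after the values were seen. Its SOCS1 counts were largest in cytokine replicate 1 and smallest in cytokine replicate 3.

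SOCS1 lies inside the span of RMI2, a gene of the BLM helicase complex on the opposite strand, with which it shares 0 exon bases. RMI2 had 63, 86 and 195 counts in the vehicle and 396, 290 and 326 in the cytokine libraries, a log2 fold change of 1.28 (SE 0.102, edgeR adjusted p = 1.3e-11). RMI2 thus also rose, by less than SOCS1. No source used here gives the strand setting of the counting, so reads from RMI2 introns could not be separated from SOCS1 reads.

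Of 14870 candidate genes with a symbol and at least 1 CPM in the higher group, CIITA, CFB and C4A had the pattern most like SOCS1. Likeness was measured over the 6 libraries by the distance between centred log2 CPM values. A prior count of 2 was added first, which lifts near-zero levels such as those of SOCS1 with vehicle. CIITA, the master regulator of class II antigen presentation genes, lay at a distance of 0.879, with 0.0919 to 0.159 CPM in the vehicle and 19.6 to 21.2 CPM in the cytokine libraries. CFB, which encodes complement factor B, lay at 0.93 with 0.0585 to 0.159 CPM in the vehicle and 22.5 to 24 CPM in the cytokine libraries. Like SOCS1, CIITA and CFB passed the count filter through the cytokine libraries alone. C4A, which encodes a form of complement component 4, lay at 1.07 and rose from between 17.3 and 19.1 CPM to between 1270 and 1300 CPM. All 3 had closer agreement among their cytokine libraries than SOCS1 had. C4A has a near-identical copy, C4B, so its own value is uncertain.

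SOCS3 encodes the other SOCS protein with a kinase inhibitory region and is best known as the brake on signalling through gp130, the shared receptor of the interleukin 6 family. The gene (ENSG00000184557) lies on chromosome 17 at 78356778 to 78360077 on the minus strand. Only 1, 0 and 2 of its reads were counted with vehicle, against 145, 99 and 112 with cytokines. In CPM, these cytokine levels were 9.65, 7.78 and 8.11, all far above the vehicle levels of 0.159, 0 and 0.117. The log2 fold change was 6.46 (SE 0.329, n = 3 per group, edgeR adjusted p = 5.8e-16). Over the summed counts of 356 against 3, the scaled ratio was 97.9-fold with a 95% counting interval from 33.2 to 476.9. Like SOCS1, SOCS3 passed the count filter through the cytokine libraries alone. The counting intervals of the SOCS1 and SOCS3 ratios overlap, so the order of the 2 rises is not fixed by these counts.

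CISH and SOCS2 are the family members most closely tied to STAT5, the STAT factor used by growth hormone and prolactin, hormones that act on beta cells. CISH is a known STAT5 target and docks on STAT5-coupled receptors, and SOCS2 limits growth hormone signalling. CISH (ENSG00000114737) lies on chromosome 3 at 50606490 to 50611831 on the minus strand. The RefSeq promoter window of CISH holds 4 matches to TTCNNNGAA, the palindromic motif that STAT dimers bind, and these are shown because the gene is a textbook STAT5 target. Capitals mark the motif in each run, with the runs at chr3:50611994-50612017 and chr3:50611876-50611905 on the minus strand of GRCh38.p14.
CISH distal pair: ttTTCCTGGAAagTTCTTGGAAat
CISH proximal pair: ggTTCTAGGAAgacgctgcTTCCGGGAAgg
The matches start 241, 230, 129 and 112 bases before the RefSeq start and do not overlap one another. The far end of this window already lies in an annotated exon outside CISH. Its last 57 bases lie inside the GENCODE span of CISH. Of 35114 RefSeq promoters of 250 bases, 6.57% hold at least 1 match to TTCNNNGAA and 5 hold at least 4, or 0.0142%. The SOCS1 window holds 0 such matches, and the windows of SOCS4, SOCS6 and PTPN6 hold none of the 3 motifs. No window was used for SOCS2, SOCS3, SOCS5, SOCS7 or PTPN2.

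CISH levels were 9.37, 6.98 and 7.31 CPM in the vehicle and 6.59, 5.58 and 4.85 CPM in the cytokine libraries. The groups did not overlap, but the lowest vehicle and highest cytokine library lay close together. CISH fell by 0.42 on the log2 scale (SE 0.138, n = 3 per group, edgeR adjusted p = 0.012). It did not pass without vehicle replicate 1 (-0.33, adjusted p = 0.059) or without cytokine replicate 3 (-0.30, adjusted p = 0.086), nor in DESeq2 (adjusted p = 0.11). An exon of MAPKAPK3, a kinase gene on the other strand, shares 218 bases with CISH exons, and MAPKAPK3 did not pass the test (log2 fold change -0.06, edgeR adjusted p = 0.40).

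SOCS2 was the only one of the 10 genes to fall by more than 2-fold. The gene (ENSG00000120833) lies on chromosome 12 at 93569814 to 93583487 on the plus strand. Its level was 11.9, 10.8 and 11.6 CPM in the vehicle and 1.26, 1.73 and 1.45 CPM in the cytokine libraries, which rest on 19, 22 and 20 counts. The 3 vehicle libraries were close to one another and each lay far above each cytokine library. SOCS2 fell by 2.95 on the log2 scale (SE 0.154, n = 3 per group, edgeR adjusted p = 1e-15). SOCS2-AS1, an antisense transcript that shares 277 exon bases with SOCS2, fell by 3.27 (SE 0.292, edgeR adjusted p = 1.4e-10), from 20, 37 and 57 counts in the vehicle to 3, 5 and 6 in the cytokine libraries. With the strand setting not given, reads in the shared bases cannot be assigned to either transcript. SOCS2P2, a SOCS2 pseudogene on chromosome 22, had 4, 13 and 16 counts in the vehicle and 17, 9 and 1 in the cytokine libraries, and SOCS2P1 at most 1. How the counting treated reads shared with SOCS2 is not given in the sources used, so the low cytokine level of SOCS2 is uncertain by counts of that size.

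Within the same cells, the receptor genes upstream of CISH and SOCS2 moved the other way from SOCS2. GHR, which encodes the growth hormone receptor, had 9.46 to 9.65 CPM in the vehicle and 12.4 to 16.4 CPM in the cytokine libraries, and rose by 0.65 on the log2 scale (edgeR adjusted p = 9.7e-06). PRLR, which encodes the prolactin receptor, rose by 0.34 (edgeR adjusted p = 0.028) with TMM scaling and did not pass when scaled by library size alone (0.14, adjusted p = 0.37). STAT5A rose by 1.04 (edgeR adjusted p = 8.2e-10), and STAT5B, with 69.4 to 82.3 CPM over all 6 libraries, did not pass (0.08, adjusted p = 0.25). These 4 genes were chosen after their values were seen.

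SOCS4, SOCS5, SOCS6 and SOCS7 carry longer N-terminal regions than the others and are linked less to JAKs than to receptor tyrosine kinases: SOCS4 and SOCS5 to the EGF receptor, SOCS6 to KIT and the insulin receptor, SOCS7 to insulin signalling. The 4 genes were expressed in both groups and lay close to their vehicle level. SOCS4 (chromosome 14, 55027230 to 55049488) had 58.1 to 61.2 CPM in the vehicle and 60.8 to 63.4 CPM in the cytokine libraries, ranges that overlap. Its log2 fold change of 0.05 did not pass (edgeR adjusted p = 0.43), with a 95% interval from -0.06 to 0.16, and was -0.15 (adjusted p = 0.015) when scaled by library size alone.

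SOCS5 (chromosome 2, 46698952 to 46780245) had 24.8, 25.8 and 25.0 CPM in the vehicle and 28.0, 26.9 and 30.0 CPM in the cytokine libraries. All cytokine libraries were above all vehicle libraries, by a narrow margin. SOCS5 rose by 0.17 on the log2 scale with TMM scaling (SE 0.0704, edgeR adjusted p = 0.044), but was -0.035 (adjusted p = 0.68) when scaled by library size alone. The call was also lost without vehicle replicate 1 (adjusted p = 0.067), vehicle replicate 3 (0.14), cytokine replicate 1 (0.055) or cytokine replicate 3 (0.13), all by edgeR, and in DESeq2 (0.18). LINC01118, a transcript on the same strand, shares 160 exon bases with SOCS5 and had at most 13 counts in a library, and the SOCS5 pseudogenes had at most 6.

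SOCS6 (chromosome 18, 70288901 to 70330200) had 62.7 to 64.2 CPM in the vehicle and 55.8 to 60.2 CPM in the cytokine libraries. The groups did not overlap, yet the log2 fold change of -0.11 did not pass (SE 0.0535, edgeR adjusted p = 0.076, 95% interval from -0.22 to 0). Scaled by library size alone it was -0.31 (adjusted p = 1.1e-05). SOCS7 (chromosome 17, 38352228 to 38405593) had 72.4, 75.5 and 74.5 CPM in the vehicle and 66.7, 65.7 and 64.6 CPM in the cytokine libraries. Each group was tight and the groups were apart. SOCS7 fell by 0.18 on the log2 scale (SE 0.0501, n = 3 per group, edgeR adjusted p = 0.0033), a call that DESeq2 did not make (adjusted p = 0.058).

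PTPN2 encodes T-cell protein tyrosine phosphatase, which dephosphorylates JAK1, JAK3 and STAT3 and in beta cells restrains interferon signalling. The gene (ENSG00000175354) lies on chromosome 18 at 12785478 to 12929643 on the minus strand. Its level was 21.3, 21.9 and 20.2 CPM in the vehicle and 63.4, 63.1 and 61.9 CPM in the cytokine libraries. The cytokine libraries varied little, with a coefficient of variation of 1.26%, and lay far above the vehicle libraries. PTPN2 rose 2.98-fold, a log2 fold change of 1.58 (SE 0.0637, n = 3 per group, edgeR adjusted p = 2.1e-18). The 2 processed pseudogenes inside its span, STK25P1 and EIF4A2P1, had at most 12 counts in a library, and the PTPN2 pseudogenes PTPN2P1 and PTPN2P2 at most 2.

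PTPN6 encodes SHP-1, a phosphatase with SH2 domains that is most abundant in blood cells and also occurs in epithelial cells. The gene (ENSG00000111679) lies on chromosome 12 at 6946468 to 6961316 on the plus strand. Its level was 37.9, 34.8 and 36.2 CPM in the vehicle and 31.5, 30.8 and 34.4 CPM in the cytokine libraries, so the highest cytokine library nearly reached the lowest vehicle library. PTPN6 fell by 0.16 on the log2 scale (SE 0.0663, n = 3 per group, edgeR adjusted p = 0.036). The call was lost without vehicle replicate 1 (adjusted p = 0.11), vehicle replicate 3 (0.11), cytokine replicate 1 (0.15) or cytokine replicate 2 (0.14), all by edgeR, and in DESeq2 (0.25).

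Because PTPN6 is also a blood-cell gene, 13 blood-cell markers were read beside it. Only CORO1A and CD14 had enough counts to be tested: CORO1A, an actin regulator, fell by 0.56 on the log2 scale (edgeR adjusted p = 4.3e-06) and CD14 did not pass (-0.33, adjusted p = 0.20). The other 11 had at most 7 counts in a library. PTPRC, the pan-leukocyte marker, had 0 to 0.234 CPM, and CD3D and MS4A1 were at 0 counts in all 6 libraries. The summed level of the 13 markers was 19.9 to 23.0 CPM in the vehicle and 14.9 to 15.2 CPM in the cytokine libraries. Most of this sum was CORO1A, with means of 17.9 CPM with vehicle and 12 CPM with cytokines, so it hardly reflects the other markers. The sum moved the same way as PTPN6, and its part in that result was not tested.

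**Figure D2:**
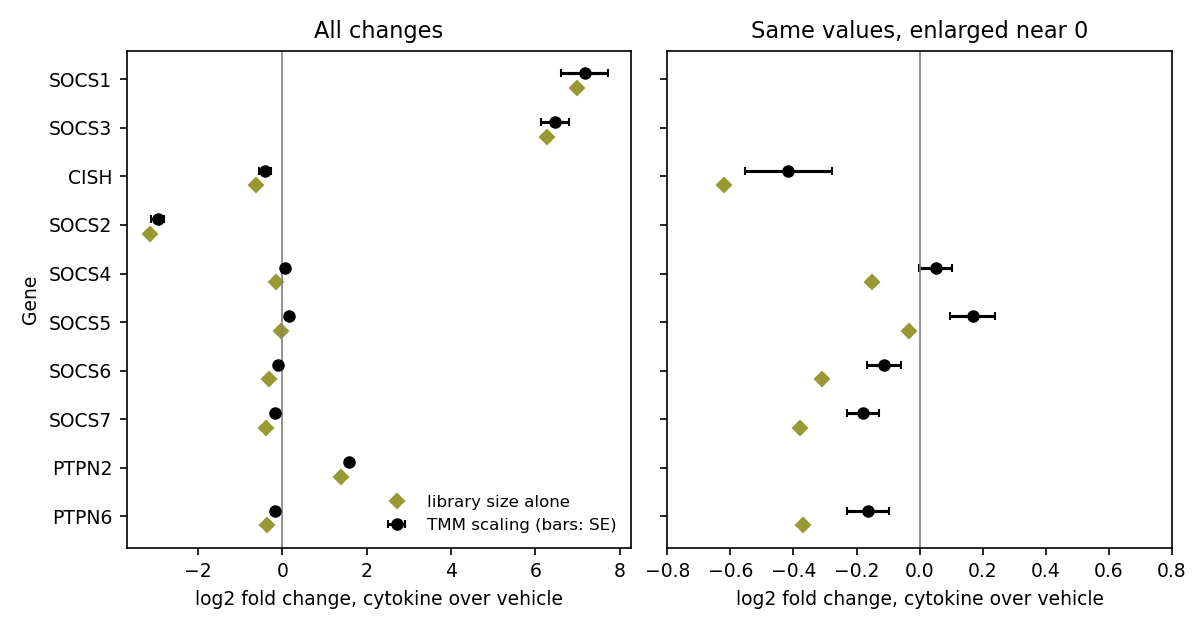
Log2 fold change of each gene, cytokine over vehicle, over the full range and enlarged near 0. Black points use TMM scaling with bars of 1 standard error, and diamonds use library size alone. SOCS1, SOCS3, SOCS2 and PTPN2 keep their place under both, while SOCS4 and SOCS5 lie above 0 with TMM scaling and at -0.15 and -0.035 with library size alone.

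The authors' deposited table gave similar changes, with log2 fold changes of 7.27 for SOCS1, 6.46 for SOCS3, -2.94 for SOCS2 and 1.59 for PTPN2. Of the 10 genes, 6 had an FDR under 0.05 in the authors' deposited table: these 4, CISH (0.015) and SOCS7 (0.012). The share of all genes with such an FDR is not given here. SOCS5 (0.091) and PTPN6 (0.09) did not pass in the authors' deposited table.

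Per kilobase of merged exons, the order of the 10 genes changed mostly through 4 of them. Merged exons hold every annotated exon of a gene, used in these cells or not, so levels compare between genes only roughly. In the vehicle group SOCS6 was highest at 10.6 ± 0.145 CPM per kb (SD, n = 3), followed by SOCS7 (8.6), SOCS4 (8.42), PTPN6 (7.25), SOCS5 (3.32), PTPN2 (2.42), SOCS2 (1.69) and CISH (1.54). SOCS1 at 0.138 ± 0.113 and SOCS3 at 0.0337 ± 0.0301 CPM per kb came last. SOCS7 and SOCS4, SOCS2 and CISH, and SOCS1 and SOCS3 overlapped between libraries, so those neighbours have no fixed order in the vehicle group.

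With cytokines SOCS1 stood first at 17.2 ± 4.24 CPM per kb (SD, n = 3), above SOCS6 at 9.79. SOCS4 (8.77), SOCS7 (7.62), PTPN2 (7.2), PTPN6 (6.44), SOCS5 (3.72), SOCS3 (3.11) and CISH (1.11) followed, and SOCS2 was last at 0.218 ± 0.0349 CPM per kb. No neighbours overlapped between libraries in the cytokine group. On this measure SOCS1 thus moved from the lowest levels, shared with SOCS3, to the first place, and SOCS2 from a level shared with CISH to the last. The first place depends on the lengths used. In CPM, the cytokine mean of SOCS1 (30.8) lay below those of SOCS7 (65.7), PTPN2 (62.8), SOCS4 (61.8), SOCS6 (58.6) and PTPN6 (32.2). SOCS3 reached a level per length just below that of SOCS5.

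**Figure D3:**
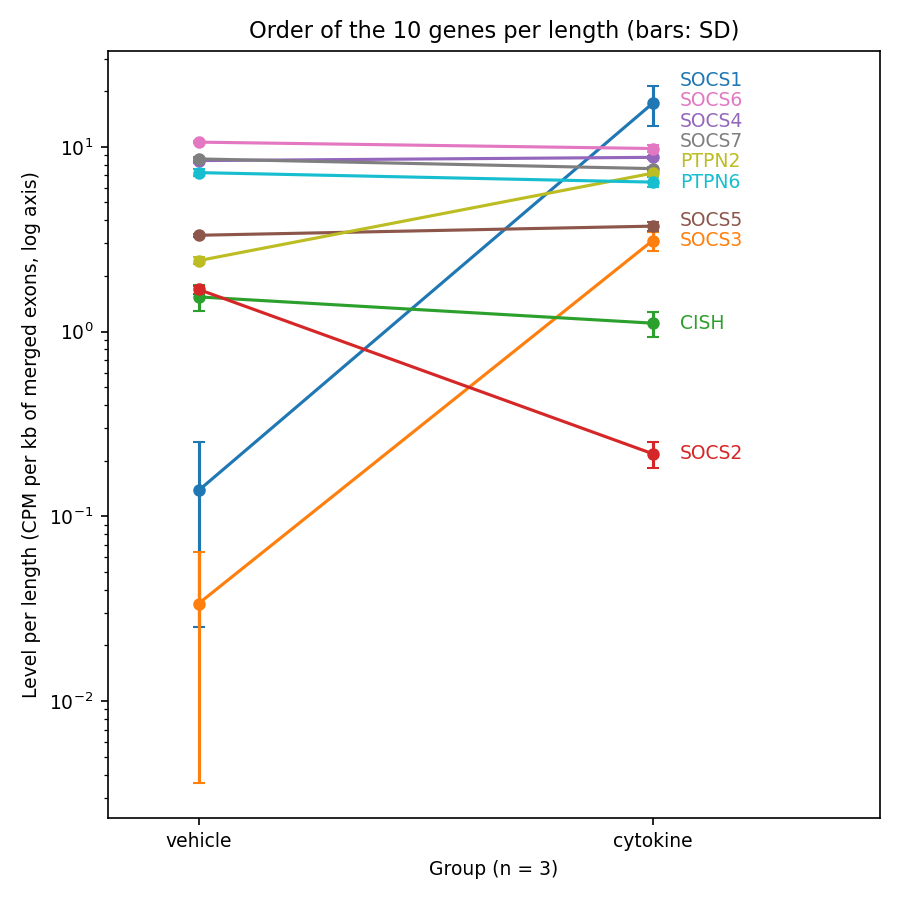
Mean level per length of each gene in the vehicle and cytokine groups, in CPM per kilobase of merged exons on a log axis, with bars of 1 SD over 3 libraries. The lines of SOCS1, SOCS3 and PTPN2 climb and that of SOCS2 drops, while the other 6 stay nearly level.

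Related genes were also compared inside each library, which removes the scaling. The difference of log2 CPM between 2 genes holds their lengths as a constant, so only its shift between groups is read. For CISH minus SOCS2 it was -0.34, -0.62 and -0.65 in the vehicle and 2.25, 1.60 and 1.64 in the cytokine libraries. All vehicle values were negative and all cytokine values positive, and the shift was 2.37. For PTPN2 minus its closest relative PTPN1, which encodes the phosphatase PTP1B, the difference went from between -2.36 and -2.18 to between -1.11 and -1.07, a shift of 1.17. PTPN1 itself rose by 0.39 on the log2 scale (edgeR adjusted p = 3.3e-08), so the shift is the part of the PTPN2 rise beyond that of PTPN1.

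SOCS1 minus SOCS3 shifted by 1.17, from between 0.28 and 1.00 to between 1.46 and 2.03. That shift rests on 0 to 3 vehicle counts per library and was 0.64 with a prior count of 0.5 in place of 2, where the groups overlapped (exact permutation p = 0.2). In the other pairs the groups overlapped, with shifts of 0.11 for SOCS5 minus SOCS4, 0.065 for SOCS6 minus SOCS7 and -0.023 for PTPN6 minus PTPN11, the gene of the related phosphatase SHP-2. The exact two-sided permutation test of 3 against 3 libraries cannot go below p = 0.1. It gave 0.1 for the 3 pairs without overlap at a prior count of 2 (0.2 adjusted over the 6 pairs, 0.24 with a prior count of 0.5), 0.2 for SOCS5 minus SOCS4 and SOCS6 minus SOCS7 (0.24 adjusted) and 0.8 for PTPN6 minus PTPN11.

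**Figure D4:**
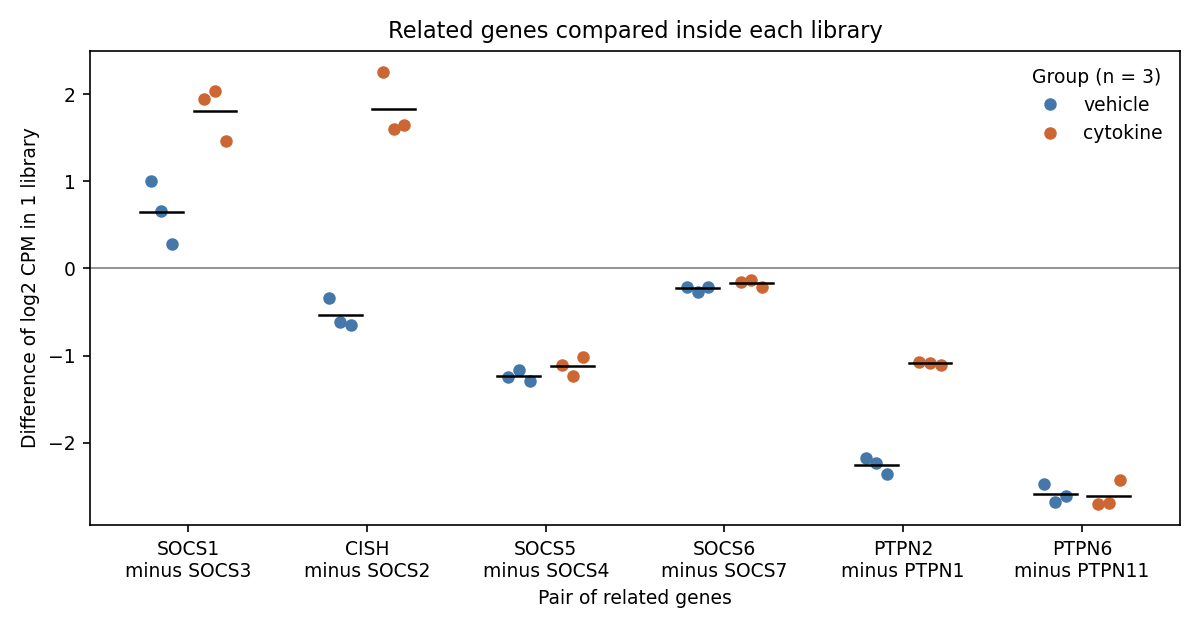
Difference of log2 CPM between related genes inside each library. Points are libraries and black bars are group means over 3 libraries. With a prior count of 2, the groups are apart for SOCS1 minus SOCS3, CISH minus SOCS2 and PTPN2 minus PTPN1, and overlap for the other 3 pairs.

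The surrounding pathway was described with 7 lists of genes, whose counts are to be read beside the 28.3% of all tested genes called higher, the 28.8% called lower and the median log2 change of -0.018 over all tested genes. Counts given with library size alone are to be read beside 2980 higher and 8791 lower of all 17863 tested genes and a median of -0.22. No list was tested as a set. Among JAK kinases and STAT factors, 6 of 10 tested genes were higher and 2 lower with cytokines, with a median log2 change of 0.79. JAK2, the kinase of the interferon gamma receptor that SOCS1 inhibits, went from between 11.3 and 12.2 CPM to between 240 and 247 CPM and rose by 4.36 (SE 0.061, edgeR adjusted p = 1.4e-29). JAK3 fell by 0.59 and TYK2 by 0.20 (edgeR adjusted p = 4.3e-05 and 0.0012). JAK2 thus rose in the same libraries as SOCS1, SOCS3 and PTPN2.

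Of 12 tested other brakes on JAK-STAT signalling, 7 were higher and 2 lower (75% called, against 57.1% of all tested genes), with a median of 0.30. With library size alone 6 were higher and 4 lower, and the median was 0.1. USP18, which limits type I interferon receptor signalling, went from between 20.5 and 21.5 CPM to between 88.7 and 91.5 CPM and rose by 2.1 (edgeR adjusted p = 4.6e-22). SH2B3, the adaptor LNK that restrains JAK2 and is another type 1 diabetes candidate gene, rose by 0.93 (edgeR adjusted p = 2.5e-14). PDLIM2, a nuclear ubiquitin ligase for STATs, fell by 1.46 (edgeR adjusted p = 2.8e-07), and PTPN11 fell by 0.15 (adjusted p = 0.0051).

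Among other non-receptor tyrosine phosphatases, 3 of 12 tested genes were higher and 5 lower, with a median of -0.023, while with library size alone 3 were higher and 8 lower and the median was -0.23. PTPN23, an endosomal sorting protein, rose by 0.44 (edgeR adjusted p = 3.1e-09) and PTPN21 by 0.41 (adjusted p = 9.4e-05). PTPN13 fell by 0.53 (edgeR adjusted p = 1.3e-06) and PTPN18 by 0.49 (adjusted p = 1.3e-09). PTPN2 had the largest called change of this gene class.

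Of 9 tested SOCS-box ubiquitin ligase partners, 2 were higher and 1 lower, with a median of 0.092. The scaffold gene CUL2 rose by 0.53 (edgeR adjusted p = 7.9e-10). ELOC, which encodes the elongin C that binds the SOCS box, rose by 0.21 with TMM scaling (edgeR adjusted p = 0.016) but not with library size alone (0.012, adjusted p = 0.90). UBE2F, a NEDD8-conjugating enzyme for CUL5, fell by 0.29 (edgeR adjusted p = 0.0023). CUL5, the cullin most SOCS proteins use, did not pass (0.09) and was named outside the naming rule. With library size alone 1 was higher and 3 lower, and the median was -0.11.

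Of 17 tested cytokine and hormone receptors, 9 were higher and 4 lower, with a median of 0.13, while with library size alone 6 were higher and 6 lower and the median was -0.073. IL6ST, which encodes gp130, the receptor that SOCS3 binds, went from between 38.6 and 40.0 CPM to between 115 and 131 CPM and rose by 1.64 (edgeR adjusted p = 5.8e-20). MET, the hepatocyte growth factor receptor, rose by 1.72 (edgeR adjusted p = 8.8e-20). EPOR, the erythropoietin receptor, fell by 0.78 (edgeR adjusted p = 5.2e-12). IFNGR1 and IFNGR2, which form the interferon gamma receptor, did not pass with TMM scaling (-0.03 and 0.08), while with library size alone both passed as lower (-0.23 and -0.12). These 2 genes lay outside the naming rule.

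Of 20 ligands of those receptors only LIF and IL11, both of the gp130 family, had enough counts to be tested, and both were called higher. LIF went from 3 counts over the vehicle to 61 over the cytokine libraries, a 16.8-fold scaled ratio with a 95% counting interval from 5.5 to 83.6, and passed the count filter only through the cytokine libraries. IL11 rose by 0.78 (edgeR adjusted p = 0.030), with overlapping groups (0.318 to 1.52 CPM with vehicle, 1.49 to 2.46 CPM with cytokines), a call lost with library size alone (0.57, adjusted p = 0.10). The other 18 ligands had at most 15 counts in a library, and 6 of them were at 0 throughout.

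Among 12 tested SH2-domain adaptors and regulators of receptor signalling, 5 were higher and 4 lower, with a median of 0.041, while with library size alone 3 were higher and 7 lower and the median was -0.16. IRS2 and IRS1, the insulin receptor substrates that SOCS1 and SOCS3 can target for degradation, rose by 1.26 and 1.13 (edgeR adjusted p = 1.9e-18 and 8.6e-16). GRB7 and GRB10, adaptors of growth factor and insulin receptors, fell by 0.71 and 0.63 (edgeR adjusted p = 2.1e-08 and 9.5e-09).

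**Figure D5:**
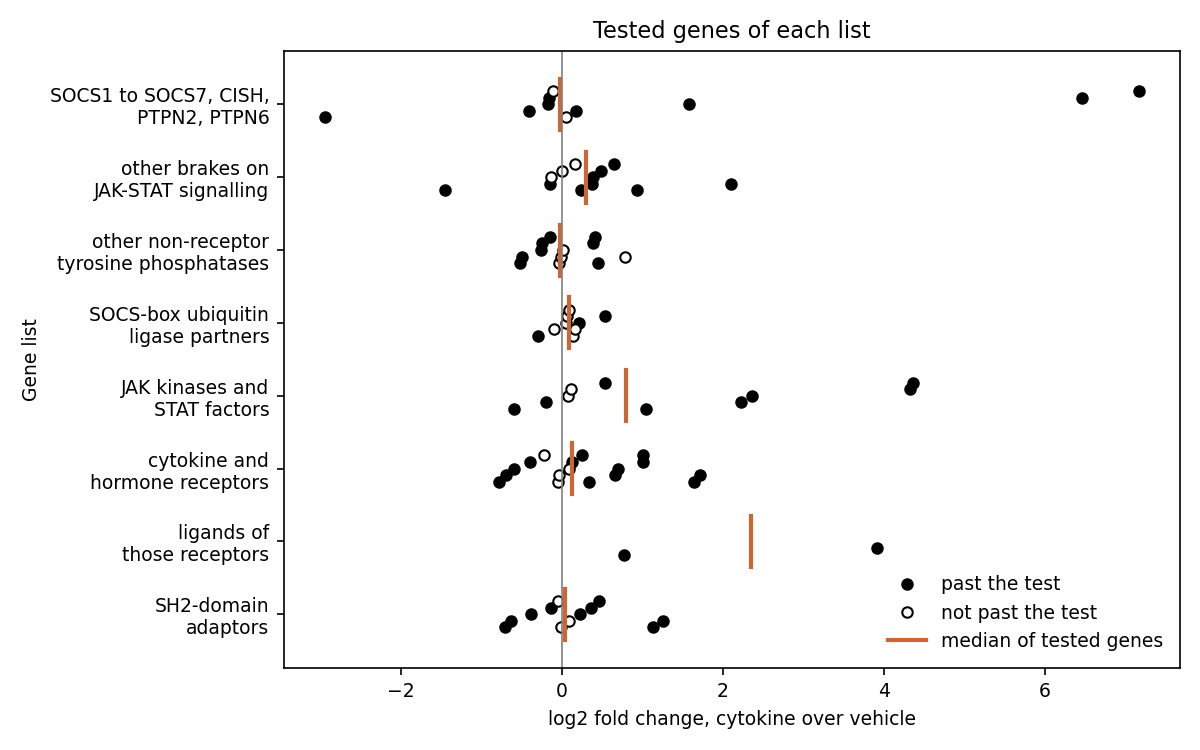
Log2 fold change of each tested gene in the 10 signalling brakes and in the 7 lists of surrounding genes, cytokine over vehicle. Filled points passed the edgeR test, open points did not, and vertical bars mark the median of the tested genes. SOCS1 and SOCS3 lie farthest to the right of all points and SOCS2 farthest to the left.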

How the data were processed

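RNA of 6 EndoC-BH5 libraries was analysed, 3 per group, grouped by sample title. Libraries were made with a strand-specific kit, per the labels' protocols, and cutadapt 2.10, STAR 2.7.5a and HTSeq 0.12.4 are named with no role, per the submitters' processing notes. The authors deposited estimated counts per gene that are not normalised and of which 67.3% to 73.5% lay within 0.005 of a whole number, and the origin of the fractions is not given in the sources used here. Columns named NT were taken as vehicle, the other 3 carrying the cytokine name. The authors also deposited a log2 fold change and a p-value with its FDR per gene, per the file headers, quoted only where named.

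Counts were rounded to whole numbers, which the planned design allowed for, filtered with filterByExpr, scaled by TMM and tested with the quasi-likelihood F-test of edgeR 4.0.16 in R 4.3.3 (group as the only term, robust dispersion). The SE was the change divided by the square root of F. Gene positions and merged exon lengths came from GENCODE 29 on GRCh38. Promoter sequences came from RefSeq (GRCh38.p14), whose table held 7 of the 10 genes (not SOCS2, SOCS5 or SOCS7). A window was used only if it ended within 200 bases of the GENCODE gene start, which left 5.

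All 10 genes are named, with up to 2 higher and 2 lower genes per list by size of change (at least 1 CPM in the higher group), the partner in each pair and the 3 genes nearest to SOCS1. Some genes this rule names are not reported here. Members, lists and tests were chosen with earlier results of these data known. Alternatives were DESeq2 size factors, library size alone, DESeq2 1.42.0, no count filter, at least 1 CPM in 3 libraries, a replicate block, an adjusted p of 0.01, glmTreat against 1.5-fold and each library left out in turn. In simulated data over 17863 genes, 61, 44, 41 and 54 genes were changed by 0.25, 0.5, 1 and 2 on the log2 scale. Of these, 59%, 86.4%, 100% and 100% were recovered, with 8 false among 177 calls. Genes at low levels were not changed, and every gene was drawn with the same common dispersion. In the real data 57.1% of tested genes were called and the spread differs by gene. The simulation checks the code, and its rates do not give the power or error of the calls reported here. Replicates of a group differed by 1.37 to 2.45 in chi-square per gene, so no library was counted as a duplicate.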

Additional observations from a re-analysis of the deposited data

How the results depend on the processing

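SOCS1, SOCS2, SOCS3 and PTPN2 kept their direction and their call under all 14 alternatives, with log2 changes of 6.87 to 7.68, -3.15 to -2.83, 5.97 to 6.96 and 1.38 to 1.63. Of the 10 genes, the number called lower was 4, but 1 with DESeq2, 1 with glmTreat against 1.5-fold and 2 at an adjusted p of 0.01, and 2 to 4 when each library was left out in turn. Over all tested genes, 5140 of 17863 were called lower, against 3365 of 40429 with DESeq2. The number was 949 with glmTreat, 4114 at an adjusted p of 0.01 and 4355 to 4858 when each library was left out in turn. With library size alone SOCS4 was -0.15 and SOCS5 -0.035, against 0.05 and 0.17 with TMM scaling (that scaling moved the median gene from -0.018 to -0.22). Calls were lost in 9 of 14 alternatives for SOCS5, 8 for PTPN6, 5 for CISH and 2 for SOCS7. The shift of PTPN6 minus PTPN11 ranged from -0.11 to 0.036 with 1 library left out, so its sign is not established.

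With the replicate number as a block, 4 genes were higher and 4 lower, and no call among the 10 changed. Over all 17863 tested genes, 5001 were then higher and 5097 lower. Same-numbered libraries of the groups did not deviate together (correlations 0.0115, -0.0471 and -0.0499), so the numbers were not taken to pair samples. Depth limits SOCS1 and SOCS3, whose vehicle levels rest on 0 to 3 counts per library.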
